A study of Homo sapiens with 6 samples.

Results

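TANC1, TANC2, PDZD4, DLG1, DLG3, DLG5, SHANK2, SHANK3, LIN7C and CASK encode scaffold proteins of synapses and cell junctions. They are 10 of the 53719 gene rows of the count table and were taken by symbol, and each symbol had 1 row. TANC1 and PDZD4 were chosen because they fell and rose in the comparison described here, and the other 8 because they belong to the same family of proteins, with results of the comparison already known. The values of all 10 are therefore descriptions, with no p printed; whether a member passed the threshold of the fit over all genes is stated only to describe how that depends on the libraries and settings, and supports nothing. The RNA came from H9, a widely used line of human embryonic stem cells, which grew in RSeT (a commercial medium meant for a naive-type state). Both groups were transfected with a gapmer, an antisense oligonucleotide with a DNA core that lets RNase H cut the paired RNA, and RNA was taken after 48 h. The knockdown group (3 libraries, a, b and c) received one that targets ALR, the alpha satellite RNA made from centromeric repeats, and the control group (3 libraries, a, b and c) a control gapmer. Both groups are 1 cell line, and the labels do not say whether the libraries are separate cultures, so p-values measure only the spread between these libraries, which may be technical. No gene row of this table measures ALR itself, so the knockdown was not checked here. Each group received a single gapmer, so effects of losing ALR and other effects of that gapmer cannot be told apart. Values per library are given below in the order a, b, c.

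PDZ domains are small modules that grip the last residues of other proteins, and proteins with several of them hold receptors, adhesion proteins and enzymes together under a membrane. At excitatory synapses the DLG proteins bind receptors, the SHANK proteins link them to the actin-bound layer beneath, and TANC1 and TANC2, large proteins with ankyrin and TPR repeats, bind the DLG and SHANK scaffolds. Outside neurons, DLG1, DLG5, CASK and LIN7C also take part in epithelial polarity and cell junctions. PDZD4 is a PDZ protein related to the LNX and PDZRN ligase family and is less well characterised.

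TANC1 and PDZD4 start in CpG-rich DNA. The 250 bases before the start site given by RefSeq (GRCh38.p14) are printed for these because the comparison turns on them, 5' to 3', with each match to the GC box GGGCGG, read on both strands, in capitals.
TANC1 (chr2:158968390-158968639, plus strand): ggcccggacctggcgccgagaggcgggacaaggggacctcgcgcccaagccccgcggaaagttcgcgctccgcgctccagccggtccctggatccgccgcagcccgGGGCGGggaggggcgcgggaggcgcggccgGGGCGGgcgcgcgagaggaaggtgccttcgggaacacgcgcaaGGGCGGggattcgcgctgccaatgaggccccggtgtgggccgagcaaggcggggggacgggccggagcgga
PDZD4 (chrX:153830545-153830794, minus strand, the upstream of 2 start sites listed): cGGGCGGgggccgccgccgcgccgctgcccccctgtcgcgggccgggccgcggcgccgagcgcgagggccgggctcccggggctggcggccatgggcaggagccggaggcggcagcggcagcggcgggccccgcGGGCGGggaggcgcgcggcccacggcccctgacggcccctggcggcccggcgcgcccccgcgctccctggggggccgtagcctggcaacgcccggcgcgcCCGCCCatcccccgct
The TANC1 window held 38 CpG dinucleotides and 78.4% G or C, and the PDZD4 window held 45 and 88.4%, against medians of 11 and 58.0% over the 35116 windows listed. Each held 3 GC boxes, a motif with at least 1 match in 42.6% of all windows. The share of all windows with 3 matches was not counted. CCAAT, on either strand, matched once in the TANC1 window and not in the PDZD4 window (32% of all windows), and TATAAA matched in neither (10.7%). The other start listed for PDZD4 had 0 GC boxes, 27 CpG and 74.8% G or C. The listed windows of TANC2 (31 CpG, 77.6%) and CASK (37 CpG, 79.2%) and a window listed for DLG3 (22 CpG, 74.4%) also held 3 GC boxes each, so this is not particular to the pair. A match is only a match of letters.

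The libraries held 25087629 to 36576752 counts. Knockdown library a had counts in 29678 rows and the other 5 libraries in 25898 to 26788, and on the first principal component it lay at -53.4 and the others at 4.82 to 15.4. Of the pluripotency markers, POU5F1, NANOG, LIN28A, DPPA4 and TDGF1 summed to 3319 to 3744 CPM (counts scaled to a fixed library total) in knockdown and 3278 to 3327 in control libraries. SOX2 was listed at 0 in every library. Of the naive markers, DPPA3, KLF4 and TFCP2L1 were well counted, while KLF17, a defining one, had 1 to 10 counts per library; the list summed to 68.1 to 76.6 CPM in knockdown and 66.9 to 73.9 in control libraries. Trophectoderm and amnion markers summed to 1.71 to 2.38 CPM and endoderm markers to 1.79 to 3.42 CPM over all 6 libraries. Neuron markers summed to 300.2 to 333 CPM in knockdown and 313 to 335 in control libraries, most of it TUBB3 (210 ± 17.7 and 226 ± 12.8 CPM; SD, n = 3 each). Among them STMN2 fell, from 19.5 ± 1.04 to 12.1 ± 0.999 CPM (edgeR adjusted p = 0.00551), and SNAP25 was listed at 0. Of the 9 neuron markers tested, 6 had log2 fold changes above 0 and 3 below, with a median of 0.02. Neural progenitor markers, led by NES, summed to 355 to 403 CPM in knockdown and 304 to 356 in control libraries, mesoderm markers, led by MIXL1, to 13.0 to 14.7 and 10.3 to 12.6, and fibroblast or feeder markers, led by COL1A2, to 86.0 to 95.1 and 90.1 to 103. The part of these markers in the results below was not tested.

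Genes that lie inside other genes bear on how the counts of these long genes were made. Of 347 protein-coding genes inside the span of a gene on the opposite strand, with no exon shared, 94.2% were at 0 in all 6 libraries, and of 103 inside a gene on the same strand 92.2% were. Of 10801 that overlap no other gene 7.02% were at 0. SOX2 (inside SOX2-OT), SNAP25, and GPR34 and GPR82 (both inside CASK) were all at 0, though a gene not expressed in these cells would be at 0 under any counting. Counting over whole gene spans without regard to strand, with reads shared by overlapping genes left out, would give such a table. The submitters' notes name featureCounts, but the settings it was run with are not given in the sources used here. The counts of the members can thus include intronic reads, and reads from isoforms are not separated. In bulk RNA, fewer cells that express a gene and less RNA per cell cannot be told apart.

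TANC1 RNA was about 2-fold lower after ALR knockdown. The gene (ENSG00000115183.14) lies at chr2:158968671-159232659 on the plus strand in GENCODE 29 (GRCh38), is protein-coding, spans 264 kb and holds 4 small genes in its introns, a microRNA, a U6 copy and 2 pseudogenes. Its value was 34.1, 33.3 and 38.6 CPM (TMM-normalised) after knockdown against 80.6, 70.0 and 74.0 CPM with the control gapmer. The groups were far apart, and the highest knockdown library, c, lay well below the lowest control library, b. The means were 35.3 ± 2.83 and 74.9 ± 5.37 CPM (SD, n = 3 each). That is 2.12-fold lower, with a log2 fold change of -1.08 ± 0.08 (SE). Raw counts were 968 to 1112 in knockdown and 2173 to 2690 in control libraries, so counting error is small beside the difference. Of all 19721 genes tested, 0.142% had a more negative log2 fold change.

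TANC2, the paralog of TANC1, was lower in only part of the knockdown libraries. It lies at chr17:63009556-63427699 (plus strand, ENSG00000170921.15) and spans 418 kb. Its value was 25.6, 24.2 and 34.1 CPM after knockdown against 36.8, 32.2 and 35.6 CPM with the control gapmer. Knockdown libraries a and b lay below all 3 controls, and knockdown library c lay among them. The log2 fold change was -0.32 ± 0.12 (SE), and TANC2 did not pass the adjusted threshold over all genes. It overlaps 9 other annotated genes, 2 of them through exons.

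PDZD4 was the member with the largest rise. It (ENSG00000067840.12) lies at chrX:153802166-153830565 on the minus strand, spans 28.4 kb and overlaps no other annotated gene. Its value was 41.1, 46.2 and 41.2 CPM after knockdown against 32.1, 31.0 and 29.6 CPM with the control gapmer. No control reached the lowest knockdown library, and knockdown library b was the highest. The means were 42.8 ± 2.91 and 30.9 ± 1.25 CPM (SD, n = 3 each). That is 1.39-fold higher, with a log2 fold change of 0.47 ± 0.07 (SE). Of all tested genes, 6.68% had a larger log2 fold change. Of the 6 fits that each left out 1 library, PDZD4 passed the adjusted threshold in 2 (without knockdown library a or c) and not in 4. Without knockdown library b, or without any 1 of control libraries a, b and c, the log2 fold changes were 0.41, 0.51, 0.47 and 0.44.

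**Figure D1:**
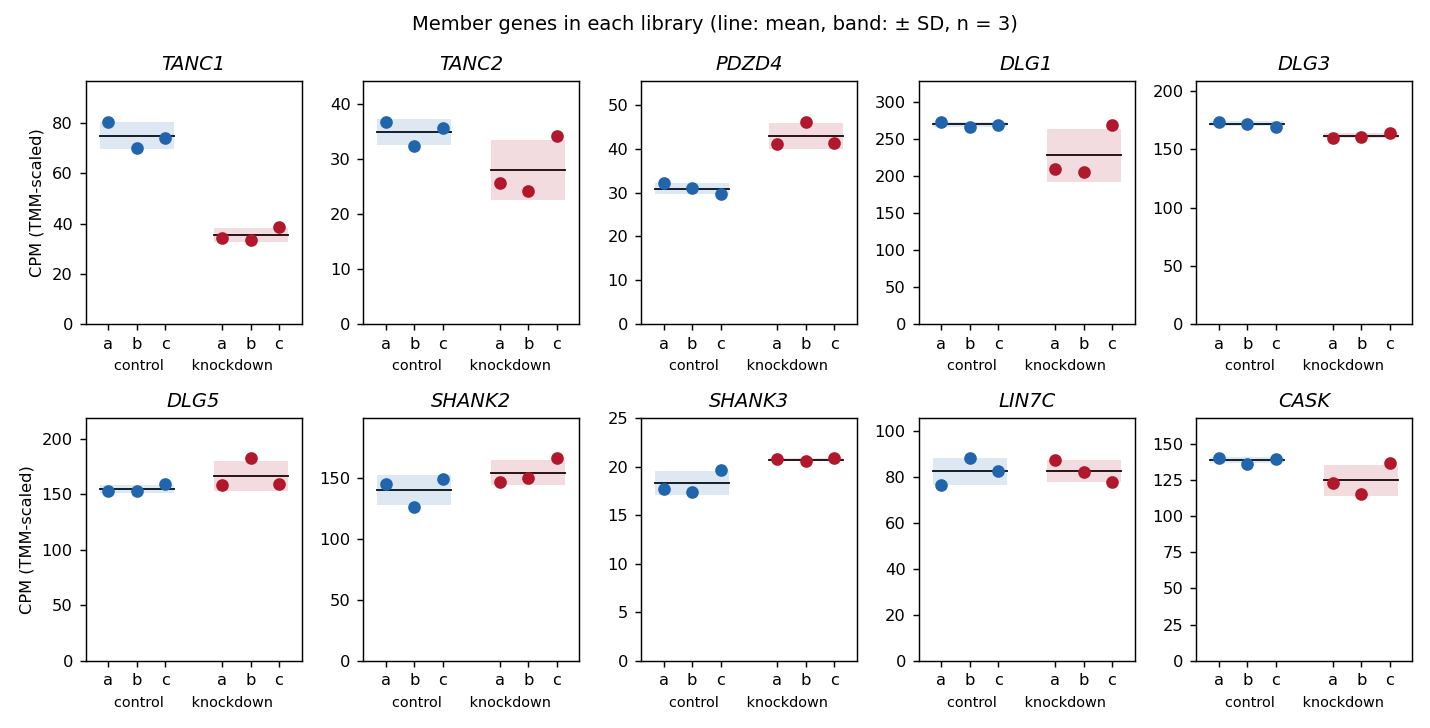
Each panel plots 1 gene in CPM (y axis, from 0, TMM-scaled library sizes) for control libraries (blue) and ALR knockdown libraries (red) a, b and c; the line is the mean and the band ± SD (n = 3). TANC1 and PDZD4 separate the groups widely, while for TANC2, DLG1 and CASK knockdown library c sits at the control level.

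The 3 DLG genes among the members, which belong to the MAGUK family with PDZ, SH3 and guanylate kinase-like domains, did not move alike. DLG1 (SAP97; ENSG00000075711.20, chr3:197042560-197299300, minus strand) had 209, 206 and 269 CPM after knockdown against 274, 266 and 270 CPM with the control gapmer. As for TANC2, knockdown libraries a and b were low and c was at the control level, and the log2 fold change was -0.24 ± 0.09 (SE). DLG3 (SAP102; ENSG00000082458.11, chrX:70444861-70505490, plus strand) had 160, 161 and 164 CPM after knockdown against 174, 172 and 169.6 CPM with the control gapmer. Its groups did not overlap, but the step was small, at a log2 fold change of -0.09 ± 0.06 (SE). DLG5 (ENSG00000151208.16, chr10:77790791-77926526, minus strand) had 158, 182 and 159 CPM after knockdown against 153, 153 and 159 CPM in control libraries. Only knockdown library b stood out, and the log2 fold change was 0.10 ± 0.07 (SE).

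The SHANK genes among the members, SHANK2 and SHANK3, code for scaffolds that sit deeper in the postsynaptic density. Both had positive log2 fold changes, and neither was called. SHANK2 (ENSG00000162105.18, chr11:70467856-71252577, minus strand) is the longest member at 785 kb. It had 147, 150.1 and 166 CPM after knockdown against 145, 126 and 149 CPM in control libraries, and the groups overlapped (log2 fold change 0.14 ± 0.08, SE). SHANK3 (ENSG00000251322.7, chr22:50674415-50733298, plus strand) had 20.8, 20.6 and 20.9 CPM after knockdown against 17.7, 17.4 and 19.7 CPM in control libraries. Its knockdown libraries were close to each other and all above the controls, at a log2 fold change of 0.18 ± 0.08 (SE).

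CASK and LIN7C encode partners in a complex that carries channels and adhesion proteins, CASK as a MAGUK with a kinase-like domain and LIN7C as a small PDZ protein. CASK (ENSG00000147044.21, chrX:41514934-41923645, minus strand) had 123, 115 and 136 CPM after knockdown against 139.9, 136.1 and 139.7 CPM with the control gapmer. Knockdown library c again reached the controls, and the log2 fold change was -0.15 ± 0.07 (SE). LIN7C (ENSG00000148943.11, chr11:27494576-27506773, minus strand) is the shortest member at 12.2 kb. It had 87.4, 82.0 and 77.8 CPM after knockdown against 76.2, 88.1 and 82.6 CPM in control libraries. Its groups covered the same range, and the log2 fold change was 0.002 ± 0.07 (SE).

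All 10 members passed the filter on low counts, which was applied without regard to the direction of a gene. TANC1 was called lower and PDZD4 higher in edgeR's fit over all genes, where 0.649% of 19721 genes were called lower and 0.137% higher, and the remaining 8 were not called. Since those genes were picked on this contrast, nothing is read from that count. The groups did not overlap in 4 members, TANC1 and DLG3 below the controls and PDZD4 and SHANK3 above, against 18.9% of all tested genes (9.37% lower and 9.55% higher). The median log2 fold change of the 10 was -0.04, with 5 members below 0 and 5 above, and that of all tested genes was 0.02.

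**Figure D2:**
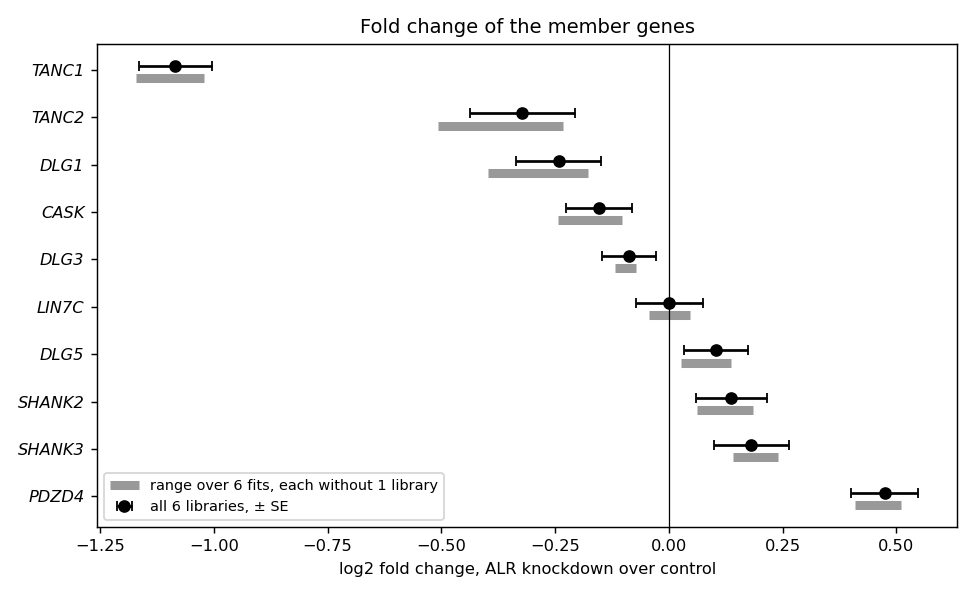
Points give the log2 fold change (x axis, ALR knockdown over control) of each member with its SE from the fit on all 6 libraries, and grey bars the range over the 6 fits that each left out 1 library. TANC1 stays between -1.17 and -1.02, PDZD4 between 0.41 and 0.51, and TANC2 ranges from -0.51 to -0.23.

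TANC2, DLG1 and CASK depended on knockdown library c. Without that library their log2 fold changes were -0.51, -0.40 and -0.24, and all 3 passed the adjusted threshold (edgeR), as did TANC1. In that fit 6.4% of 20456 genes were called and 5.44% were called lower, and of the genes in the top span decile (190 kb and more), which holds all 3, 29.7% were called lower. With all 6 libraries they did not pass, and without knockdown library b the values were -0.23, -0.18 and -0.10.

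These 3 genes, TANC1 and SHANK2 all belong to the top span decile of the tested genes (spans of 190 kb and more). In that decile (1595 genes) the median log2 fold change was -0.07, and 2.13% of genes were called lower and 0.0627% higher. The shift differed between libraries: relative to the control mean, the median of that decile on the log2 scale was -0.07, -0.26 and -0.004 after knockdown against 0.04, -0.07 and 0.03 with the control gapmer. With each library's trend on gene span removed, which was tried only after looking at the data, TANC1 was at -1.04, PDZD4 at 0.43, TANC2 at -0.25, DLG1 at -0.20, CASK at -0.08 and SHANK2 at 0.27.

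**Figure D3:**
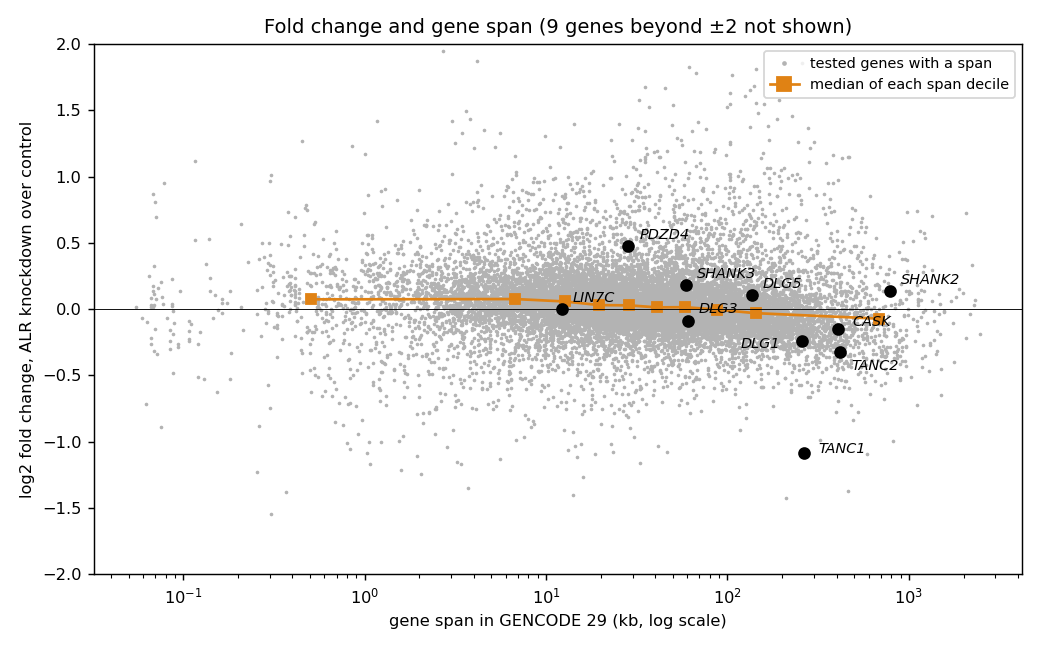
Each grey point is a tested gene matched to the annotation, with its span (x axis, kb, log scale) and log2 fold change (y axis, ALR knockdown over control); squares are medians of span deciles, and black points are the members. The medians decline from 0.07 to -0.07 towards long genes, and TANC1 (-1.08) lies far below the median of its decile.

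Levels of different genes can be set side by side only per length, and the choice of length mattered. Per kb of exon, control libraries held 24.5 ± 0.354 RPKM (CPM per kb; SD, n = 3) for DLG1, 21.9 ± 0.278 for DLG3, 17.6 ± 1.27 for LIN7C and 15.1 ± 0.355 for DLG5. SHANK2 (7.47 ± 0.651), PDZD4 (7.11 ± 0.287) and CASK (6.95 ± 0.109) followed, and these neighbours did not differ beyond their spread. TANC1 (5.03 ± 0.361), SHANK3 (2.45 ± 0.166) and TANC2 (1.53 ± 0.103) were lowest. Because intronic reads can be included, the same CPM were also divided by the gene span, chosen after the data had been seen. LIN7C was then first at 6.75 per kb of span and DLG3 second at 2.84, and DLG1 dropped to rank 5 at 1.05, while TANC1 was at rank 8 (0.284) and TANC2 last (0.0834). With the longest annotated transcript as the length, TANC1 (9.87 RPKM) lay above PDZD4 (8.20), and TANC2 (2.98) above SHANK3 (2.47), so the order of the lower members depended on the length used. If reads shared by overlapping genes were left out, none of these lengths allows for the loss. TANC2 and CASK each overlap 9 annotated genes and SHANK2 8, while PDZD4 and LIN7C overlap 0, so their levels may not be comparable.

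Of the relatives and partners of these scaffolds, TNIK and NLGN3 were called. In 7 lists chosen by family or partnership, 97 of 98 genes were tested (LNX1 was listed at 0), 2 were called higher and 0 lower (2.06%, against 0.786% of all tested genes by edgeR). At an unadjusted p under 0.05, 19 were higher and 13 lower (14.3% of all tested genes passed it), and DESeq2 called 6 higher and 0 lower (2.69% of all tested genes were called by it). With no filter on low counts edgeR called 8 higher and 9 lower (3.29% of all genes in that fit). With the replicate letters as a block it called 4 higher and 2 lower (1.99%), and with the span trend removed 3 higher and 1 lower (1.52%). The lack of lower calls thus depended on the setting. Knockdown and control values were fully apart for 29.9% of the listed genes, against 18.9% of all. The 15 tested MAGUK relatives had a median log2 fold change of -0.04, the 12 CASK and LIN7 partners 0.15, the 23 postsynaptic scaffold partners 0.03, the 9 PDZD and LNX relatives 0.08, the 6 genes of RAP2 and its kinases -0.003, the 15 cell polarity genes -0.02 and the 17 synaptic receptors and neuroligins 0.24. The median of all tested genes was 0.02. Without knockdown library a the median of the synaptic receptors and neuroligins was 0.03. With a mean count of at least 50 their median was 0.12, and with counts thinned to the smallest library 0.15. Without knockdown library c the median of the PDZD and LNX relatives was -0.04 and that of the MAGUK relatives -0.11. Without control library b, and also without control library c, the median of the postsynaptic scaffold partners was -0.03.

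Both called genes came from lists chosen for ties to these scaffolds, with earlier results of these data known. Their shared part in postsynaptic signalling therefore follows from the choice of lists and is not a result. TNIK (chromosome 3), a kinase that acts with the small GTPase RAP2 and is a known partner of TANC proteins, rose from 22.4, 22.4 and 20.9 CPM in the controls to 32.1, 28.6 and 30.5 CPM after knockdown (log2 fold change 0.47 ± 0.08, SE; edgeR adjusted p = 0.0156). The lowest knockdown library was above the highest control. NLGN3 (chromosome X), a postsynaptic adhesion protein, rose from 5.70, 5.70 and 5.29 CPM to 8.50, 9.44 and 9.73 CPM (log2 fold change 0.73 ± 0.12, SE; edgeR adjusted p = 0.0158), again with no overlap. The TNIK call was lost without knockdown library a and the NLGN3 call without knockdown library b, and both were lost without any 1 of the control libraries.

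In the lists with no call, the genes highest per kb of exon had similar means in both groups or varied between libraries. These genes were picked by level and do not stand for the rest of their lists. Among MAGUK relatives these were MAGI1 (420 ± 85.1 CPM in knockdown and 481 ± 41.4 in control; SD, n = 3 each) and TJP1, which encodes the tight junction protein ZO-1 (379 ± 21.5 and 372 ± 2.50). Among CASK and LIN7 partners APBA2, a Mint adaptor, had 40.5 ± 2.27 and 40.4 ± 4.75. DLGAP1, which links DLG proteins to SHANK proteins, had 336 ± 102 and 453 ± 66.4 CPM, and the actin-binding CTTN 206 ± 7.24 and 202 ± 4.16. LNX2, a PDZ ubiquitin ligase, had 52.2 ± 1.91 and 58.6 ± 5.74, and PDZD11 17.6 ± 1.97 and 15.3 ± 0.937. The polarity genes PARD3 and PRKCI had 348 ± 63.9 and 431 ± 41.3, and 141 ± 6.24 and 144 ± 11.5. For MAGI1, DLGAP1 and PARD3 knockdown library c was the highest of the knockdown libraries and lay within or above the range of the controls, as for TANC2 and DLG1.

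**Figure D4:**
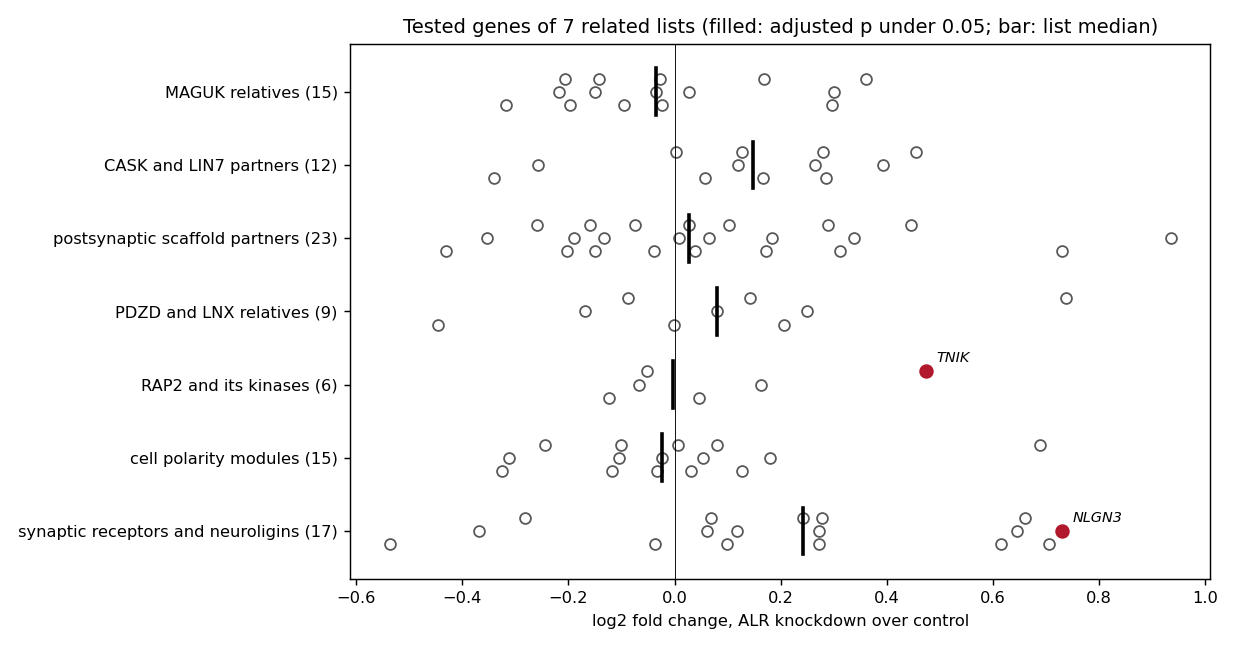
Each circle is a tested gene of 1 of 7 lists (number tested in parentheses) at its log2 fold change (x axis, ALR knockdown over control); filled circles passed the adjusted threshold and bars are list medians. TNIK and NLGN3 are the filled circles, and the medians run from -0.04 to 0.24.

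The 36 listed genes in the top span decile had a median log2 fold change of -0.06 (all genes of that decile -0.07), and the other 61 had 0.10 (all genes of the other deciles 0.03). Without knockdown library c, 21 of the 97 were called, 16 of them lower, and 13 of these 16 were among the 36 of the top decile. In that fit 5.44% of all genes were called lower, and the share was 29.7% within the top decile and 3.47% within the other deciles.

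The genes most like TANC1 and PDZD4 were found by the root mean square difference in log2 CPM over the 6 libraries, each gene centred on its own mean, among 15139 other genes with a mean count of at least 50. With 2 groups this mostly finds genes with a step of the same size. For TANC1 they were MED13L, which codes for a Mediator kinase module subunit (difference 0.07), the exocyst gene EXOC4 (0.12), the kinase gene RPS6KA3 (0.12), RP13-25N22.1 (0.13) and the secreted neuropeptide precursor gene VGF (0.14), where the median over all genes was 0.56. MED13L averaged 127 ± 12.2 CPM after knockdown and 253 ± 15.7 in the controls, and EXOC4 had 192 ± 41.3 and 382 ± 29.8 (SD, n = 3 each). For PDZD4 they were the BCOR-like corepressor gene BCORL1 (0.03), the amino acid transporter gene SLC7A8 (0.03), FKBP1C (0.04), the forkhead factor gene FOXP4 (0.04) and TP53I11 (0.05), with a median of 0.27. BCORL1 had 20.2 ± 1.72 and 14.8 ± 0.994 CPM, and SLC7A8 had 50.8 ± 3.59 and 38.3 ± 1.58. FKBP1C resembles FKBP1A in sequence, so its counts are uncertain.

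**Figure D5:**
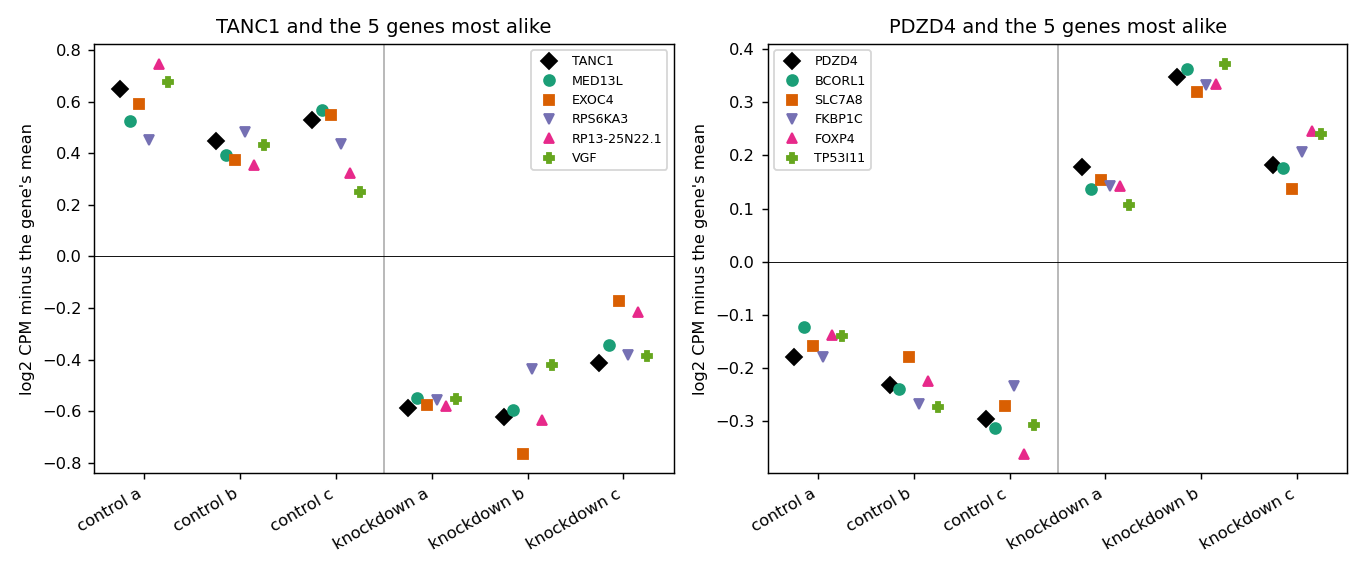
Each symbol is 1 gene in 1 library, as log2 CPM minus the mean of that gene over the 6 libraries (y axis), for TANC1 (left) and PDZD4 (right) with the 5 genes most alike; the grey line separates control from knockdown libraries. All TANC1-like genes sit above 0 in the controls and below 0 in the knockdown libraries, and the PDZD4-like genes do the reverse, with knockdown library b the highest. The genes were chosen for likeness over these same libraries, so this pattern follows from the choice.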

How the data were processed

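The authors deposited raw read counts per gene symbol for 6 RNA-seq libraries (whole numbers with unequal totals). The submitters' processing notes name Trimmomatic 0.39, STAR 2.7.8a, featureCounts, Subread 2.14.2 and hg38, and annotation, strand setting and treatment of multi-mapped reads are not given in the sources used here. Rows were matched to GENCODE 29 by name (31425) or older symbol (1348). Counts were fitted with edgeR 4.0.16 (R 4.3.3; filterByExpr, TMM, quasi-likelihood test, group as the only term, Benjamini-Hochberg adjustment over 19721 genes, threshold 0.05), and the procedure was tested on simulated data, where the share of changed genes that had to be recovered was lowered after a higher share had been missed, and where many moderate changes were not called, so a gene that is not called may still differ. Alternatives were other scalings, DESeq2 1.42.0, limma-voom (limma 3.58.1), other filters, thinning, a replicate block and leaving out each library. Libraries of a group differed by more than counting noise. The members and lists were chosen with earlier results of these data known. Named genes were the members, up to 3 called genes of a list (otherwise its 2 highest per kb of exon), the 5 genes most like TANC1 and PDZD4 each, and cell type markers; 1 gene that the rule names is not reported here. POU5F1, NANOG, DPPA3, KLF4, KLF17, SOX2, SNAP25, GPR34, GPR82, STMN2 and LNX1 were named after their values were seen. Precision is limited by 3 libraries per group.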

Additional observations from a re-analysis of the deposited data

How the results depend on the processing

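TANC1 kept its direction and passed the adjusted threshold in all 16 alternatives (log2 fold change -1.17 to -1.02), 15 planned ones and removal of the trend on gene span, which was chosen after seeing the data. PDZD4 kept its direction in all 16 (0.41 to 0.51) and passed in 12; the other 4 left out 1 library each. The number of called genes, 155 with all 6 libraries, was 530 with DESeq2, 1064 with no filter on low counts, 242 with the span trend removed (15947 genes) and between 26 and 1309 when 1 library was left out: 102, 61 and 1309 without knockdown library a, b or c, and 26, 42 and 42 without control library a, b or c. The share of called genes that were higher was 17.4%, and 28.7% with upper-quartile scaling and 35.4% with library size alone. The replicate block gave 393 genes; the labels do not say whether the letters pair the libraries, and only the b libraries correlated best with their own letter, with correlations of deviations of 1.23e-05, 0.116 and -0.0251 for a, b and c, and under the block TANC1 and PDZD4 were at -1.08 and 0.47. Of 128 values of the other 8 members, 5 newly passed the threshold (TANC2, DLG1 and CASK without knockdown library c, TANC2 and DLG1 with no filter), and 7 changed sign, all of LIN7C. Of 112 list medians, 5 moved by more than the spread between libraries. Of 30 levels per length, 18 did. Of 112 numbers of called genes per list, 25 differed from those of the main fit. What causes these shifts was not tested.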
